A study of Saccharomyces cerevisiae with 151 samples.

Results

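The comparison described here is the response of budding yeast lacking the GAT1 gene to 10 min of 3-amino-1,2,4-triazole (3AT), measured on 3 arrays of gat1 cells at 10 min against 3 arrays of the same strain at 0 min. These 6 arrays were chosen by their labels, strain and time, from the 151 arrays of the series. The series follows wild type (WT) and deletion strains of Saccharomyces cerevisiae over time after 3AT, on Affymetrix arrays that measure total RNA. The gat1 strain is BY4741, a MATa laboratory strain that lacks LEU2, MET17 and URA3, with GAT1 deleted. Whether its HIS3 gene was functional is not given in the labels. Its controls in the difference tests are BY4741 itself (WT) and BY4741 lacking GCN4 (gcn4) or LEU3 (leu3), each with 3 arrays at 0 min and 3 at 10 min. Double deletions of GAT1 and GCN4 (gat1gcn4), GAT1 and LEU3 (gat1leu3) and GCN4 and LEU3 (gcn4leu3), in the same background, enter the estimate of the spread. All cells grew in synthetic complete (SC) medium at 28 °C, in 1.6 liter cultures for the 4 strains compared and 1.4 liter for the double deletions. The first 200 ml were taken at an OD600 of 0.5 as the 0 min sample, 3AT was added to 100 mM, and a further 200 ml were pelleted at each of the later times. No untreated culture was sampled at 10 min, so the effect of 3AT and that of the 10 min of further growth and handling cannot be told apart. Whether the 3 arrays of a group stand for 3 cultures is not given in the labels; the p-values below reflect only how these arrays vary, which may be technical.

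Gat1 is a GATA-family transcription factor that, with Gln3, activates genes for uptake and breakdown of poor nitrogen sources when preferred sources are scarce, the system called nitrogen catabolite repression. The factors Dal80 and Gzf3 oppose them, and Ure2 holds them back in rich nitrogen. 3AT inhibits His3, an enzyme of histidine synthesis, and per the labels was used to induce amino acid starvation. Cells starved for an amino acid translate more Gcn4, the activator of amino acid biosynthesis genes.

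Signals are given after each array was rescaled to a 2% trimmed mean of 500, and changes are differences of log2(signal + 16), which understate the change of dim genes. Each change is given with its standard error (SE) from a limma model of 7 strains over time, and a gene was called at an adjusted p under 0.05 over 5610 genes. The deleted gene read 4.88, 3.33 and 6.28 on the gat1 arrays at 0 min and 5.21, 2.42 and 5.64 at 10 min, below the 20th percentile of all signals on the 6 arrays (18.3 to 28.7). In WT, GAT1 read 297, 337 and 311 at 0 min and 97.2, 113 and 64.2 at 10 min. The WT change was -1.65 ± 0.41 (SE, n = 3, limma adjusted p = 0.016). The 24 WT arrays of the time course spanned 36.9 to 337, and the 23 gat1 arrays 1.34 to 34.7. URA3, LEU2 and MET17 read at most 28.9 on the 6 arrays. HIS3 read 2380 to 4060 at 0 min and 3910 to 6670 at 10 min in gat1 (0.64, adjusted p = 0.49), and the probe set does not show whether this RNA was functional. Of the MATa genes MFA2 read at least 8740 and STE2 at least 643. The MATalpha gene STE3 read at most 38.9. Not all such genes separated this clearly: on the 6 arrays the MATa gene ASG7 read 48 to 138 and the MATalpha gene SAG1 58.8 to 105. Array 3 at 10 min sat apart from the other 2: its log2 signals correlated at 0.946 and 0.964 with arrays 1 and 2, which correlated at 0.973 with each other, and at 0.963 with array 3 at 0 min. The spread in the model also draws on strains whose libraries go against their labels, since 2 of 3 gat1leu3 libraries labelled 0 min resembled treated ones; with gat1 arrays alone, 106 genes rose and 89 fell in place of the counts below.

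At 10 min, 70 genes had risen (1.25% of the genes tested) and 32 had fallen (0.57%), together 102 genes (1.82%). The rises ran from 0.90 to 3.72 with a median of 1.58, and the falls from -0.96 to -3.09 with a median of -1.45, against a median over all genes of -0.08. The groups of 3 arrays did not overlap in 91 of the 102, a property of 18.9% of all genes tested. Just inside the threshold stood GSY1, a glycogen synthase (-1.63, adjusted p = 0.049), and just outside it SSU72, a phosphatase of RNA polymerase II (-0.98, adjusted p = 0.051). The mean log2 signal of the 70 rises minus that of the 32 falls was -1.01, -1.0 and -1.0 on the arrays at 0 min and 2.61, 2.71 and 1.39 on those at 10 min. Array 3 held the smallest response at 10 min, and without it 91 genes rose and 33 fell, while without array 1 or 2 at 10 min 27 or 23 rose and 7 fell. Without array 1, 2 or 3 at 0 min the rises numbered 39, 53 and 40 and the falls 10, 16 and 12.

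The plot of changes in gat1 against those in WT places the named genes. WT had 36 rises (0.642%) and 35 falls (0.624%) at 10 min, 1.27% together, and 63 and 77 with the replicate number as a block. Of these, 13 rises and 10 falls were also called in gat1, which is 18.57% of the gat1 rises and 36.11% of the WT rises, and 31.25% and 28.57% of the falls. No gene was called in opposite directions. The 70 gat1 rises had a median of 0.58 in WT, with 64 above 0 (39.8% of all genes), and the 32 falls a median of -0.92, all 32 below 0 (60.2% of all genes). Each list is largest in the comparison that chose it: the 36 WT rises had a median of 2.16 in WT and 1.23 in gat1.

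**Figure D1:**
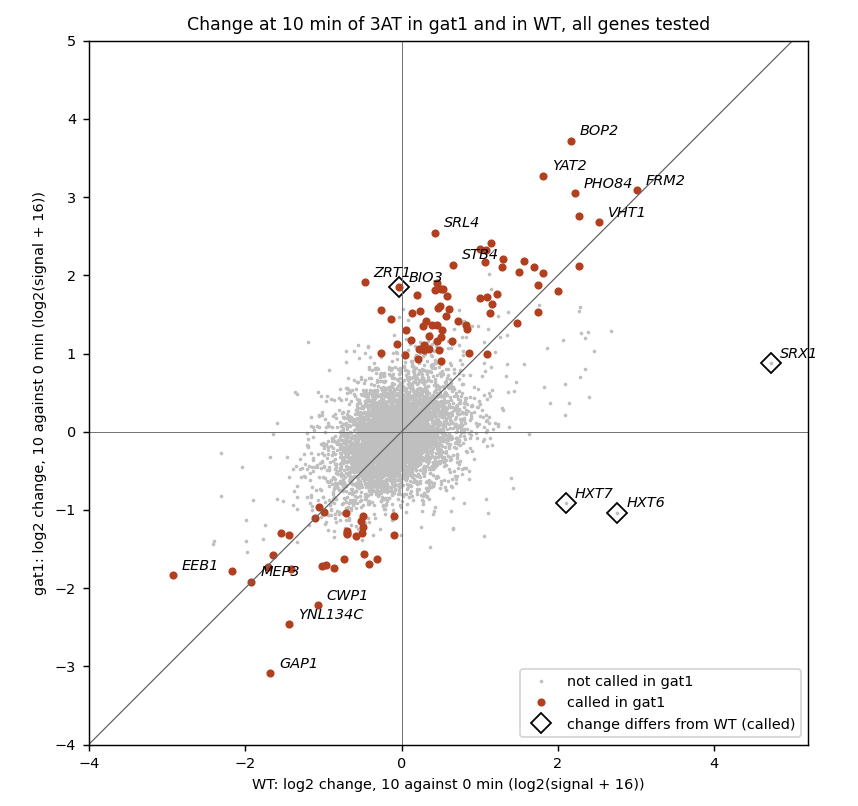
Each point is 1 of 5610 genes, at its change in WT (horizontal) and in gat1 (vertical), both as differences of log2(signal + 16) between 10 and 0 min with 3 arrays a group. Red points were called in gat1 and diamonds mark the 4 genes whose change differed between the strains; SRX1, HXT6 and HXT7 lie far to the right of the diagonal of equal change and BIO3 lies above it.

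Permeases under nitrogen catabolite repression were among the largest falls. Of 14 measured, 3 fell and 1 rose, with a median of -0.53. Over all genes 0.57% fell and 1.25% rose in gat1, the shares to set beside this and the later group counts of its changes at 10 min. The median of the 14 was -0.42 in WT, -0.72 in gcn4 and -0.735 in leu3, so the group's fall was not particular to gat1. GAP1, the general amino acid permease, read 927, 718 and 742 at 0 min and 59.5, 66.9 and 120 at 10 min. The time groups did not overlap. Its change was -3.09 ± 0.61 (SE, n = 3, limma adjusted p = 0.00061), beside -1.68 ± 0.61 in WT (1330, 1100 and 1020 to 430, 339 and 283, adjusted p = 0.21), -1.94 in gcn4 and -2.02 in leu3. The difference from WT was -1.41 (95% interval -3.11 to 0.29, adjusted p = 1.0), so the larger fall in gat1 was not resolved. AGP1, a broad amino acid permease, went from 961, 1410 and 1370 to 354, 362 and 339 (-1.76 ± 0.40, adjusted p = 0.0055), with -1.41 in WT, -1.43 in leu3 and -1.51 in gcn4. MEP3, an ammonium permease, went from 601, 753 and 615 to 148, 196 and 144 (-1.92 ± 0.44, adjusted p = 0.0061), beside -1.92 in WT, a difference of 0.00 with a 95% interval of -1.23 to 1.24. The 1 rise was DIP5, which imports glutamate and aspartate, from 3980, 1060 and 3540 to 11600, 8070 and 6260 (1.76 ± 0.50, adjusted p = 0.039). Array 2 at 0 min was the low one there.

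None of the 15 genes for enzymes under nitrogen catabolite repression was called (median -0.15). DAL3, an enzyme of allantoin breakdown, had the largest change, -1.0 (adjusted p = 0.43). Of the 5 genes for the regulators themselves, GLN3 rose, from 105, 99.6 and 40.9 to 206, 199 and 131 (1.04 ± 0.30, adjusted p = 0.041), with 0.29 in WT and a difference from WT that was not called (0.76, adjusted p = 1.0). URE2 changed by 0.53 and GZF3 by -0.39 with neither called, and DAL80 stayed at or below 8.72 on all 6 arrays. GDH1, the NADP-dependent glutamate dehydrogenase that assimilates ammonium, fell from 8940, 4950 and 8620 to 2820, 2390 and 3770 (-1.30 ± 0.37, adjusted p = 0.039). It was the 1 member called of 6 glutamate and asparagine genes. STP2, a factor of the amino acid sensing pathway that activates AGP1, rose by 1.52 (adjusted p = 0.0017), but its time groups overlapped (129, 461 and 157 to 789, 859 and 388), and it was singled out after its values were seen.

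**Figure D2:**
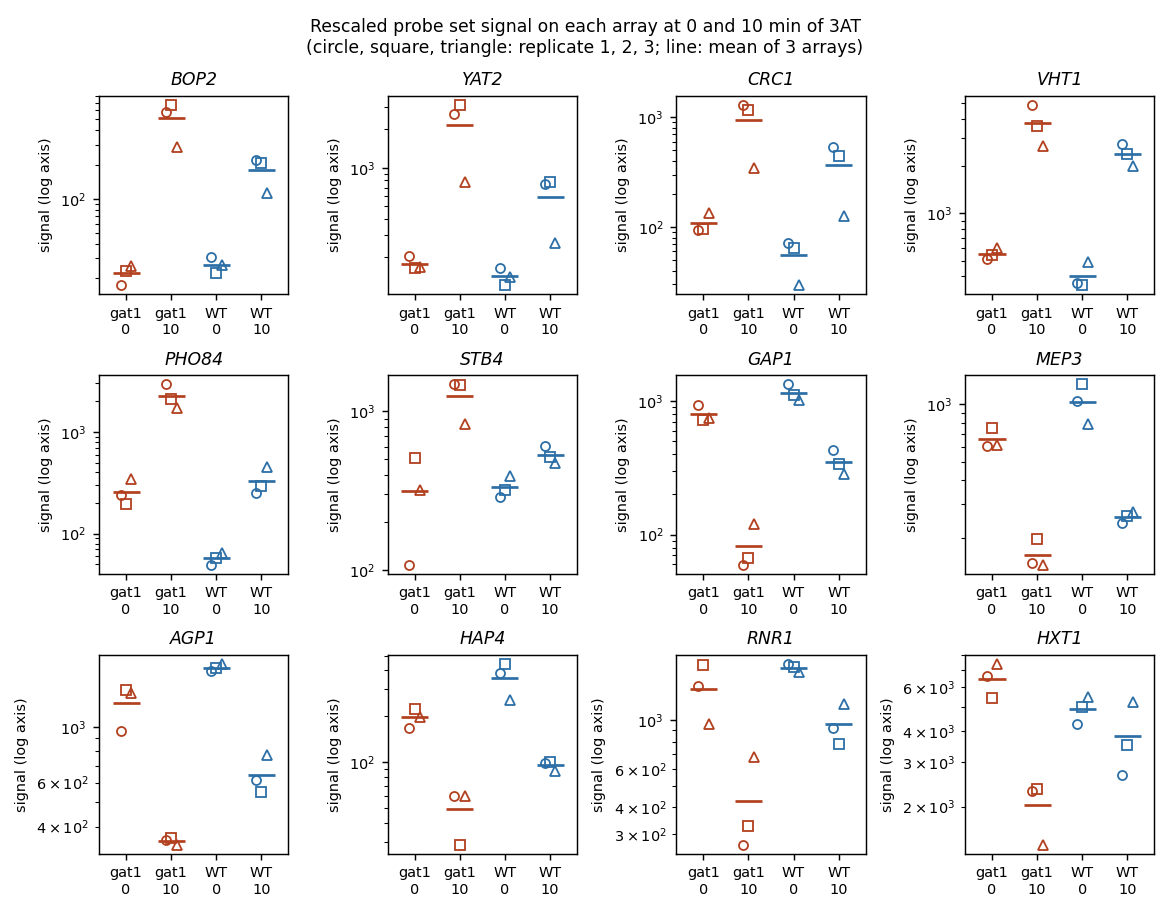
Signal on each array for 12 called genes, on log axes that do not start at 0, with gat1 in red, WT in blue and a line at the mean of 3 arrays. In gat1 every gene drawn had all 3 arrays at 10 min on 1 side of the 3 at 0 min, and for BOP2, YAT2 and CRC1 array 3 (triangle) was the lowest at 10 min in both strains.

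The carnitine shuttle, which carries acetyl groups into mitochondria, held 2 of the largest rises among its 4 genes (median 1.76). YAT2, a carnitine acetyltransferase, read 203, 164 and 167 at 0 min and 2620, 3130 and 773 at 10 min (3.28 ± 0.44, limma adjusted p = 1.1e-07). CRC1, the mitochondrial carnitine carrier, went from 93.6, 96.5 and 134 to 1310, 1170 and 348 (2.76 ± 0.50, adjusted p = 0.00018). Both were also called in WT, and neither difference from WT was called (1.46 and 0.49, each adjusted p = 1.0). The other acetyltransferases YAT1 and CAT2 changed by 0.76 and 0.46 and were not called. The methylcitrate pathway of propionate breakdown was represented by CIT3, a mitochondrial citrate and methylcitrate synthase, which rose from 5.02, 18.8 and 23.5 to 186, 220 and 59.6 (2.32 ± 0.44, adjusted p = 0.00038). PDH1, the methylcitrate dehydratase, rose by 2.04 ± 0.53 (adjusted p = 0.019, named after its values were seen).

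The largest rise of all was BOP2, from 17.4, 23.3 and 25.4 to 581, 674 and 287 (3.72 ± 0.50, adjusted p = 1.1e-07), a gene of no settled role. Its 0 min signals were near the 20th percentile of the arrays, so the size of this change depends on the pseudocount (2.68 to 4.41 over the alternatives). FRM2, a nitroreductase-like protein, followed YAT2, from 46.6, 43.9 and 48.8 to 734, 729 and 251 (3.09 ± 0.63, adjusted p = 0.00099). Its WT change was 3.01, and the difference was 0.08 (95% interval -1.67 to 1.83). It was the 1 member called of 13 genes for old yellow enzymes, nitroreductases and related functions.

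Biotin uptake and synthesis rose in gat1 at 3 of 5 genes (median 1.53). VHT1, the plasma membrane biotin importer, read 512, 545 and 605 at 0 min and 4900, 3600 and 2690 at 10 min (2.68 ± 0.48, limma adjusted p = 0.00017). Its changes in WT (2.53), leu3 (2.24) and gcn4 (1.67) were called too, among 1.27%, 0.642% and 9.52% of all genes in those strains. BIO2, biotin synthase, rose from 438, 304 and 463 to 1060, 1260 and 1200 (1.53 ± 0.40, adjusted p = 0.019), with 1.75 in WT. BIO3, the aminotransferase of the same pathway, rose from 214, 108 and 175 to 929, 1000 and 249 (1.85 ± 0.31, adjusted p = 3.0e-05), array 3 being only just above the 0 min range. BIO3 was not called in WT (126, 129 and 108 to 129, 176 and 70, -0.03 ± 0.31), and the strains are compared below. BIO5, an importer of biotin precursors, changed by 1.08 (adjusted p = 0.28). VHR1, an activator of VHT1, rose by 1.55 ± 0.39 (adjusted p = 0.013, named after its values were seen), and PYC1, a pyruvate carboxylase that carries biotin, rose from 584, 858 and 927 to 3560, 3690 and 1840 (1.88 ± 0.51, adjusted p = 0.030). NCE103, carbonic anhydrase, which supplies bicarbonate to carboxylases, rose from 979, 753 and 1320 to 3100, 4930 and 6000 (2.17 ± 0.52, adjusted p = 0.0088).

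Transporters of phosphate and zinc rose as single calls in their groups. PHO84, the high-affinity phosphate transporter, went from 240, 196 and 341 to 2930, 2130 and 1730 (3.05 ± 0.59, adjusted p = 0.00050) and was the 1 member called of 12 phosphate genes (median 0.60). WT rose from 49.4, 57.8 and 63.9 to 252, 294 and 449 (2.22, adjusted p = 0.029), and the difference of the changes was not called (0.84, 95% interval -0.81 to 2.48). The gat1 level at 10 min was higher by 2.72 ± 0.59 (adjusted p = 0.0046). SPL2, an inhibitor of low-affinity phosphate transport, changed by 1.03 (adjusted p = 0.20). ZRT1, the high-affinity zinc transporter, went from 594, 500 and 958 to 3140, 2260 and 2270 (1.91 ± 0.46, adjusted p = 0.0086), the 1 call of 7 zinc genes (median 0.56, all 7 above 0). WT arrays read 4370, 3790 and 3360 at 0 min and 3130, 2590 and 2560 at 10 min, so the strains differed before 3AT (-2.51 ± 0.46, adjusted p = 0.00068) and were not called different at 10 min (-0.12, adjusted p = 0.97). The difference of the 2 changes, 2.39 (95% interval 1.10 to 3.67), was not called (adjusted p = 0.37).

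Amino acid biosynthesis genes gave few calls by count, in short lists and beside 1.25% of all genes rising. No member was called of 7 arginine, 6 histidine, 9 lysine or 10 branched-chain genes, with medians of 0.69, 0.55, 0.24 and 0.35. All 7 arginine and all 6 histidine genes had changes above 0, against 40.3% of all genes, and HIS7 was the largest of the histidine genes at 1.12 (adjusted p = 0.14). Of 14 aromatic genes (median 0.41), TRP4, anthranilate phosphoribosyltransferase, rose from 1590, 2060 and 771 to 5260, 4890 and 2390 (1.52 ± 0.35, limma adjusted p = 0.0061), and TRP3 rose by 1.04 (adjusted p = 0.048). SER1, the phosphoserine transaminase, was the 1 of 10 serine and threonine genes (0.99, adjusted p = 0.022). SNZ1, a subunit of vitamin B6 synthase, rose from 3870, 3370 and 2530 to 11000, 10300 and 6430 (1.48 ± 0.38, adjusted p = 0.017), and its partner SNO1 changed by 1.01 (adjusted p = 0.30). GCN4 RNA itself read 6010 to 7590 at 0 min and 7040 to 7670 at 10 min, a range that overlaps. ADE17, an enzyme late in purine synthesis, fell by 1.30 ± 0.35 (adjusted p = 0.030) as the 1 call of 11 purine genes. Of 20 tRNA synthetases, 1 rose, YDR341C, the cytosolic arginyl-tRNA synthetase (0.92, adjusted p = 0.026).

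Sulfur metabolism rose at 1 of 24 genes and 1 of 6 regulators. MET28, a cofactor that helps Met4 and Cbf1 bind DNA, went from 75.9, 153 and 102 to 650, 1080 and 313 (2.34 ± 0.55, adjusted p = 0.0064). MET16, which reduces activated sulfate, went from 173, 202 and 234 to 955, 1080 and 414 (1.83 ± 0.48, adjusted p = 0.022). STR3, cystathionine beta-lyase, changed by 1.57 without a call (adjusted p = 0.18), and its level at 10 min was higher than in WT by 2.06 (adjusted p = 0.035). Iron genes were called once in 12 genes of iron use and in none of 17 of iron uptake (medians 0.58 and 0.30). ISU1, the scaffold on which iron-sulfur clusters are built, rose from 2640, 952 and 2410 to 6200, 6320 and 4780 (1.64 ± 0.39, adjusted p = 0.0074). Other genes of iron-sulfur proteins among the rises, named after their values were seen, were NAR1 (1.74, adjusted p = 0.0099) and CIA2 (1.32, adjusted p = 0.0022) of the cytosolic assembly pathway and GRX4, a glutaredoxin of iron sensing (1.75, adjusted p = 0.019). HMX1, heme oxygenase, TIS11, which binds mRNAs in iron shortage, and MRS4, a mitochondrial iron carrier, were called in WT (2.38, 2.35 and 2.28). They changed by 1.28, 1.20 and 1.60 in gat1 and were not called there, and none of the 3 differences was called (adjusted p = 1.0 each).

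Other large rises lay outside these groups. STB4, a putative zinc-cluster transcription factor, rose from 108, 510 and 322 to 1480, 1460 and 830 (2.13 ± 0.30, limma adjusted p = 2.3e-07) and had the smallest SE among the 15 largest. SRL4, linked to nucleotide pools, rose from 25.9, 34.0 and 33.4 to 402, 553 and 70.7, so that its mean rests on arrays 1 and 2. ATG41, an autophagy gene, rose from 1000, 1060 and 1540 to 6450, 4620 and 5270 (2.18 ± 0.46, adjusted p = 0.0017). AAD10, an aryl-alcohol dehydrogenase-like gene (2.21), YJR154W (2.41) and PRM7 (2.12) completed the 15. In the retrograde and citric acid cycle list, RTG3, a factor of signalling from mitochondria to nucleus, rose by 1.06 (adjusted p = 0.029) and DLD3, a cytosolic D-lactate dehydrogenase, by 1.40 (adjusted p = 0.039), the latter with overlapping groups (1260, 476 and 1230 to 1240, 3820 and 2960). With PYC1 this made 3 of 10 (median 0.24), while ACO1, aconitase, changed by -1.20 (adjusted p = 0.15) and was called lower in WT (-1.74, adjusted p = 0.0091).

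**Figure D3:**
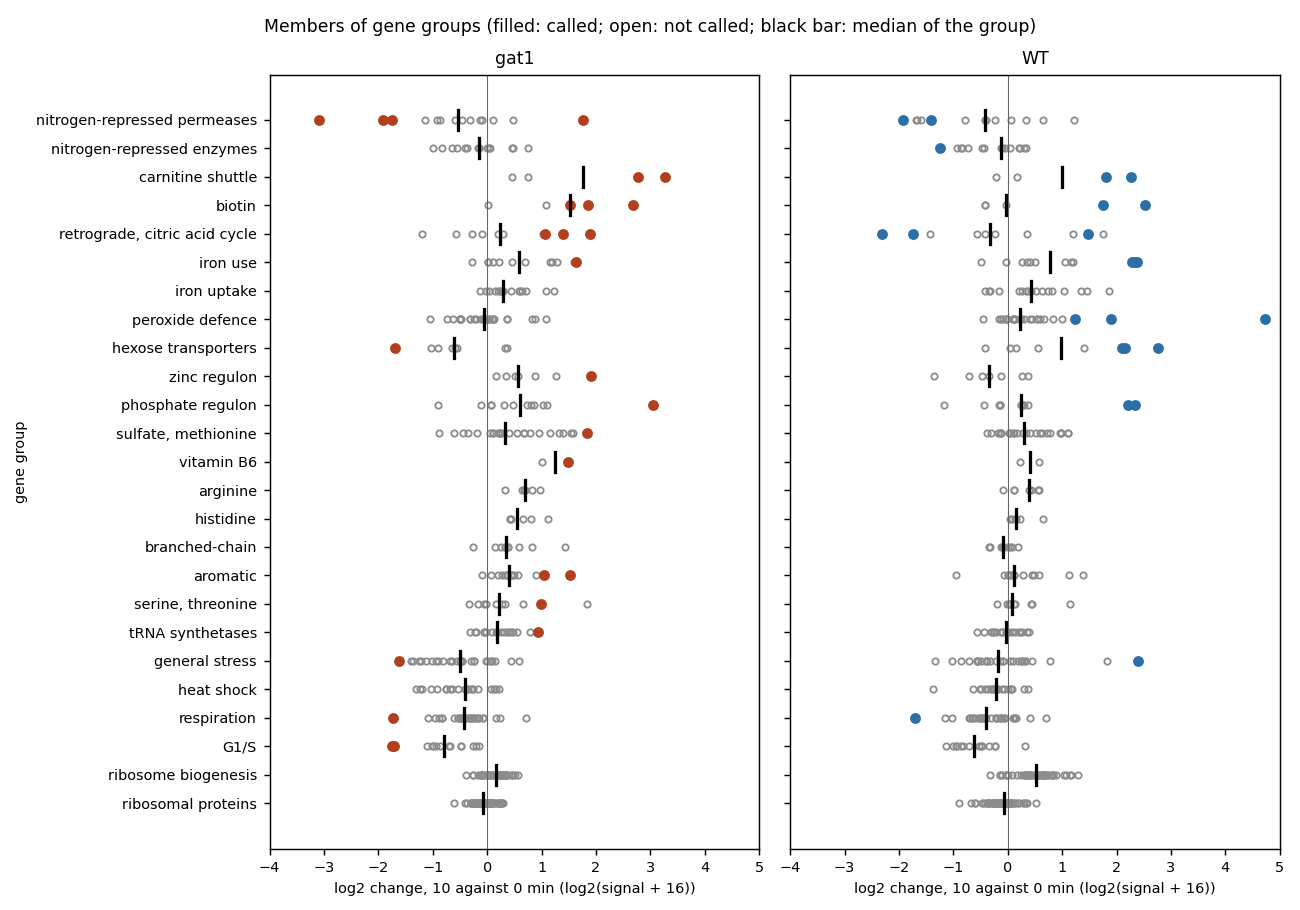
Change at 10 min of each measured member of 25 gene groups in gat1 (left) and WT (right), as differences of log2(signal + 16), with called members filled and a black bar at the group's median. In gat1 most groups hold no call or 1, while biotin holds 3 of 5 and the carnitine shuttle 2 of 4; the hexose transporters had a median of -0.62 in gat1 and 0.98 in WT.

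Among the falls, respiratory genes were called once and G1/S genes at 2 members. HAP4, the activating subunit for respiratory genes, fell from 168, 225 and 197 to 59.9, 28.9 and 59.9 (-1.73 ± 0.34, limma adjusted p = 0.00061), close to its WT change (difference -0.02, adjusted p = 1.0). It was the 1 call of 32 respiratory genes, whose median was -0.42. Outside the lists, MDH1, mitochondrial malate dehydrogenase, fell from 3880, 4510 and 3810 to 973, 1300 and 2000 (-1.56 ± 0.43, adjusted p = 0.035), and KGD2 of the 2-oxoglutarate dehydrogenase complex and NDE1, an external NADH dehydrogenase, fell by 1.27 and 1.22 (both named after their values were seen, NDE1 with overlapping groups). RNR1, the large subunit of ribonucleotide reductase, fell from 1440, 1800 and 958 to 269, 328 and 681, array 3 being nearest at both times (-1.75 ± 0.46, adjusted p = 0.022). POL30, the replication clamp, fell from 513, 557 and 453 to 117, 135 and 183 (-1.72, adjusted p = 0.047). These were 2 of 14 G1/S genes, all 14 of which had changes below 0 (median -0.79, and -0.62 in WT). CDC20, the activator of the anaphase-promoting complex, was the 1 call of 15 G2/M genes and rose (1.01, adjusted p = 0.039).

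The remaining large falls fell into no single group. CWP1, a cell wall mannoprotein, fell from 1310, 971 and 937 to 188, 156 and 336 (-2.22 ± 0.62, adjusted p = 0.034). TPO1, a polyamine exporter, fell from 680, 600 and 913 to 225, 180 and 193 (-1.78 ± 0.43, adjusted p = 0.0088), and with AQR1, which exports short-chain acids (-1.30, adjusted p = 0.038), made 2 calls of 16 exporters. EEB1, an ethyl ester synthase, fell from 445, 482 and 284 to 101, 84.2 and 113 (-1.84, beside -2.93 in WT), and PLB2, phospholipase B, from 269, 161 and 230 to 41.9, 51.8 and 91.6 (-1.62). YNL134C and YLR297W, genes of no settled role, fell by 2.46 and 1.57. GSY1 was the 1 call of 28 general stress genes (median -0.49). No member was called of 21 heat shock, 33 proteasome, 17 glycolysis, 24 ergosterol, 50 ribosome biogenesis or 81 ribosomal protein genes, whose medians lay between -0.41 and 0.17.

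Which changes differed from WT was asked by the difference of the 2 changes, and 4 genes were called (0.0713%), 3 lower (0.0535%) and 1 higher (0.0178%) in gat1, with 199 at an unadjusted p under 0.05. With the replicate number as a block 10 genes were called, these 4 among them. Without gat1 array 3 the count was 2 at 0 min and 7 at 10 min. SRX1, sulfiredoxin, which repairs overoxidised peroxiredoxins and is a target of the stress factor Yap1, read 60.5, 112 and 163 on gat1 arrays at 0 min and 184, 120 and 382 at 10 min. WT went from 154, 118 and 81.8 to 4600, 3910 and 2250, more than any gat1 array by a wide margin. The change was 0.88 ± 0.48 in gat1 and 4.72 ± 0.48 in WT, a difference of -3.85 ± 0.68 (limma adjusted p = 0.00072, 95% interval -5.19 to -2.50). The gcn4 arrays went from 527, 345 and 82.8 to 959, 770 and 226 and the leu3 arrays from 225, 245 and 101 to 569, 433 and 77.3, changes of 1.09 and 0.58 that were not called. Both of these strains carry GAT1. The change in gat1 minus theirs was -0.21 and 0.30, with neither called (adjusted p = 0.99 and 1.0). The cause of the small changes was not tested.

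HXT6 and HXT7, high-affinity hexose transporters, rose in WT, while their changes in gat1 were negative and not called. HXT6 read 920, 1570 and 2590 in gat1 at 0 min and 760, 648 and 855 at 10 min, while WT rose from 455, 476 and 575 to 3020, 3090 and 4490. The changes were -1.04 ± 0.50 in gat1 (limma adjusted p = 0.46) and 2.76 ± 0.50 in WT, a difference of -3.80 ± 0.71 (adjusted p = 0.0017). At 0 min the HXT6 level was higher in gat1 by 1.61, which was not called (adjusted p = 0.62). HXT7 had changes of -0.91 in gat1 (adjusted p = 0.41) and 2.10 in WT, a difference of -3.01 ± 0.60 (adjusted p = 0.0037). The genes are near-identical copies on probe sets that match several sequences, so their signals cannot be assigned to 1 of them. HXT2, a transporter of higher affinity, rose in WT from 1090, 778 and 1090 to 5410, 4040 and 3830 and read 1190, 1160 and 1780 in gat1 at 10 min (level difference -1.69, adjusted p = 0.022), and HXT1, the low-affinity transporter, fell in gat1 from 6630, 5410 and 7370 to 2310, 2350 and 1410 (-1.70 ± 0.49, adjusted p = 0.048). In gcn4, HXT6 changed by -1.25 and HXT1 by -1.93. In leu3 the arrays disagreed, with HXT6 going from 1300, 1450 and 2460 to 4130, 4870 and 658.

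BIO3 was the 1 gene with a larger change in gat1 than in WT (1.88 ± 0.43, adjusted p = 0.043, 95% interval 1.02 to 2.73). This call was lost under 15 of 27 alternatives, while the direction held in all 27 (1.54 to 2.51). Its level at 10 min was higher than in WT by 2.24 ± 0.31 (adjusted p = 1.2e-07). The changes in gcn4 and leu3 were -0.31 and 0.33. The gat1gcn4 arrays read 170 and 103 at 0 min and 173, 140 and 98.9 at 10 min, of which the last resembled 0 min arrays in other genes. The gat1leu3 arrays read 184, 231 and 199 under the 0 min label, then 95.1, 94.8 and 144. Of these, arrays 1 and 2 go against their labels in other genes and array 3 does not.

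The levels of gat1 and WT at 10 min differed at 67 genes (1.19%), 41 higher (0.731%) and 26 lower (0.463%) in gat1, whereas 5 genes (0.0891%) differed at 0 min. Without array 1, 2 or 3 at 10 min the count was 8, 10 and 162 for gat1 arrays and 31, 27 and 23 for WT arrays. Of the 41 higher, 14 were also among the 70 rises, and 3 genes were called at both times, GAT1 among them. Lower in gat1 were SRX1 (-3.96 ± 0.48, limma adjusted p = 2.8e-09), GRE2, a Yap1-responsive reductase (278, 267 and 472 against 1540, 1380 and 896, -1.87, adjusted p = 0.011), and, chosen after their values were seen, TRR1, cytosolic thioredoxin reductase (3760, 2980 and 4300 against 6790, 6460 and 6330, -0.84, adjusted p = 0.033), SOD2, mitochondrial superoxide dismutase (-1.61, adjusted p = 0.0046), CIN5, a Yap-family factor (-2.11, adjusted p = 0.012) and YML131W (-1.91, adjusted p = 0.029). CIN5 read 99.7, 120 and 253 in gat1 and 1100, 995 and 284 in WT, so its difference rests on arrays 1 and 2. The 26 also held genes of other kinds, CYC3 and ROX1 among them. GRE2 and YML131W were the 2 called of 13 genes for old yellow enzymes, nitroreductases and related functions, whose level differences had a median of 0.04 with 7 above 0. SRX1, TRR1 and SOD2 were the 3 called of 27 peroxide defence genes (median -0.27). For the change at 10 min, 0 of the 27 were called in gat1 (median -0.06) and 3 were called higher in WT (median 0.23). Of the changes of GRE2, -1.04 in gat1 and 1.10 in WT, the difference was -2.14 (95% interval -3.37 to -0.91) and was not called (adjusted p = 0.38).

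Higher in gat1 at 10 min, besides PHO84 and BIO3, were SRL4, YAT2, STB4 and CDC20 of the rises, and YGP1, a secreted glycoprotein of stressed cells, which was already higher at 0 min (2260, 2350 and 5460 against 443, 452 and 384 at 0 min, and 3250, 2510 and 3390 against 335, 281 and 234 at 10 min). TPO2, another polyamine exporter, read 1860, 1430 and 402 in gat1 at 10 min and 121, 53.3 and 115 in WT (3.28, adjusted p = 0.0025). At 0 min it read 664, 746 and 1700 in gat1 and 322, 297 and 304 in WT, a difference that was not called. Its change was 0.12 in gat1 and -1.59 in WT, with neither called. ARG8 and HIS2 of the arginine and histidine pathways were higher by 1.69 and 1.11 (adjusted p = 0.040 and 0.012). Array 3 was the lowest gat1 array for TPO2 and HIS2 but not for YGP1 or ARG8. These 4 genes were named after their values were seen.

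Against gcn4, 25 changes differed (0.446%), 14 more positive (0.25%) and 11 more negative (0.196%) in gat1. In gcn4 itself 534 genes were called at 10 min (9.52%). The more positive set held YAT2 (2.71 ± 0.62, adjusted p = 0.019), STB4 (2.05), BIO3 (2.16), AAD10 (2.74) and PKP2, a kinase of pyruvate dehydrogenase (2.75 ± 0.51, adjusted p = 0.0027), which changed by 1.37 in gat1 and -1.38 in gcn4. The more negative set held ribosome assembly and tRNA modification genes. RIX1, needed for the large ribosomal subunit, read 699, 1070 and 944 in gat1 at 0 min and 706, 605 and 1450 at 10 min, while gcn4 went from 194, 311 and 932 to 1760, 1610 and 1800 (difference -2.17 ± 0.49, adjusted p = 0.019). TRM8, a tRNA methyltransferase, differed by -1.92 ± 0.41 (adjusted p = 0.0093). Of the 50 ribosome biogenesis genes, 31 rose in gcn4 (median 1.30, with 4.85% of all genes rising) and 0 in gat1 (median 0.17). In WT and leu3 0 rose as well (medians 0.52 and 0.16), so the lack of a rise was not particular to gat1. The count of 25 differences rested on single arrays. Without gat1 array 1, 2 or 3 it was 12, 6 and 4 for the 0 min arrays and 0, 1 and 129 for the 10 min arrays. Without gcn4 array 1, 2 or 3 it was 6, 3 and 272 for those at 0 min, then 3, 18 and 16. On gcn4 array 3 at 0 min GCN4 read 290, against 46.2 and 35.2 on the other 2 at that time. The gcn4 arrays at 10 min, given below, also read higher than those 2. Against leu3, 0 changes were called (0%) by limma, with 171 at an unadjusted p under 0.05. The largest in each direction were HSP30, a membrane heat shock protein (2.53 ± 0.91), and TRR4 (-2.24 ± 0.72), each with an adjusted p of 1.0.

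Later times were set against the same 0 min arrays, so these values share them. The 70 rises had medians of 0.78 at 20 min, 0.01 at 30 min and -0.27 at 45 min, and 18, 14 and 6 of them were called higher at those times (0.766%, 0.624% and 0.481% of all genes). The 32 falls had medians of -1.46, -1.13 and -0.82, with 18, 12 and 9 called lower (1.09%, 2.39% and 2%). At 120 min the medians were 0.05 and -0.62. The 10 min value of each list is the one that chose it, and the 20 min group had 2 arrays.

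Single genes took different courses. VHT1 was down to 1030 on both arrays at 20 min in gat1, while WT read 3410, 2570 and 3270, and BIO3 had returned to 184 and 155. YAT2 stayed at 1290 and 1420 at 20 min and was at 198, 252 and 519 by 30 min. PHO84 remained high on every gat1 array, 2410, 2010 and 2230 at 120 min against 55.1, 126 and 170 in WT, and ZRT1 was called higher at all later times but 60 min (adjusted p = 0.13), where 0.588%, 0.446% and 0.285% of all genes were called higher at 60, 90 and 120 min. GAP1 was called lower up to 90 min, and at 120 min read 262, 224 and 185 (-1.76, limma adjusted p = 0.19). AGP1 was lower at 30 min than at 0 min, at 55.9, 71.0 and 114 (-3.74, limma adjusted p = 1.1e-11). HAP4 had returned to 176 and 201 at 20 min in gat1, within its 0 min range, while WT read 51.3, 83.5 and 55.6. SRX1 read 63.2 to 489 on the gat1 arrays from 20 to 120 min, while WT peaked at 4520, 7210 and 4720 at 20 min.

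**Figure D4:**
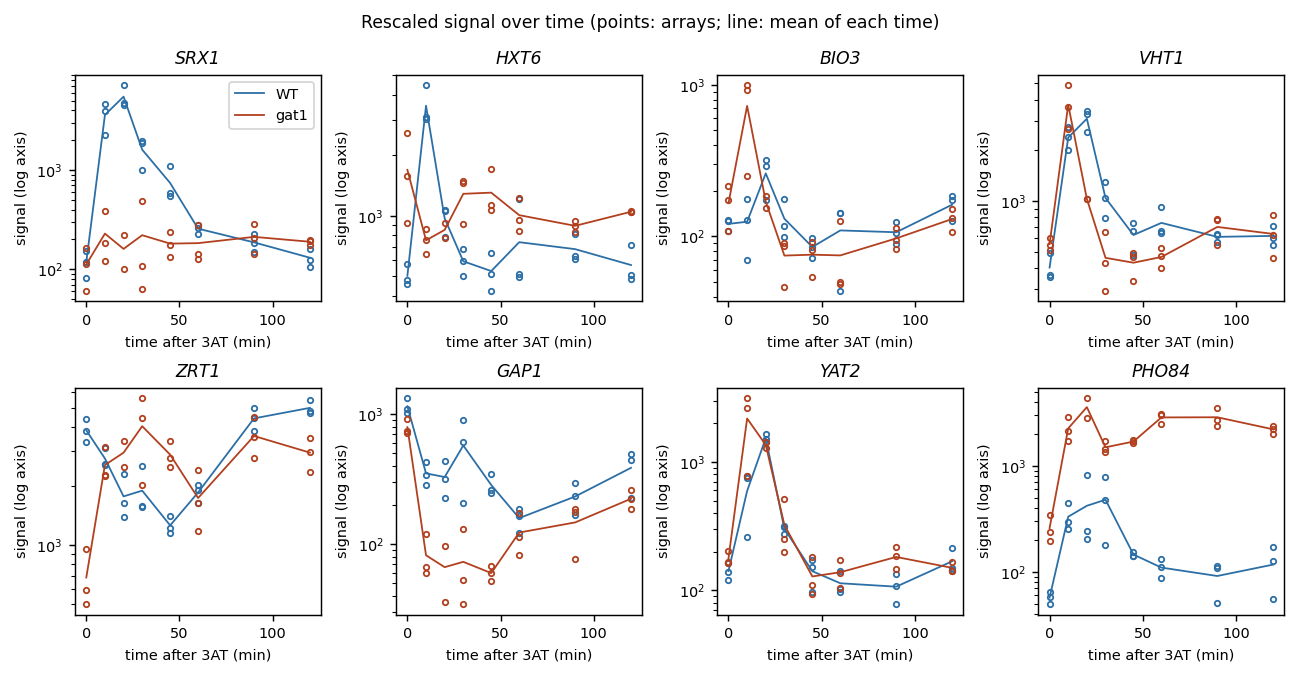
Signal of 8 genes over 8 times in gat1 (red) and WT (blue), with 1 point per array, a line through the mean of each time and log axes that do not start at 0. SRX1 and HXT6 rose in WT with no such rise in gat1, BIO3 peaked at 10 min in gat1 and at 20 min, lower, in WT, and PHO84 stayed above WT throughout.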

How the data were processed

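Total RNA of yeast cells was hybridised to Affymetrix arrays, and the deposited value of each probe set is an intensity that, per the submitters' processing notes, the authors computed with MAS5. The deposited values are on different scales: 78 arrays, the 6 gat1 arrays among them, have a 2% trimmed mean of 500.47 to 500.66, and 73 have one of 22.425 to 104.48. Each array was therefore rescaled to a trimmed mean of 500, and 16 was added before log2. Of 9335 probe sets, 6504 carry 1 gene in the platform annotation, 328 several and 2503 none. Each of the 315 genes with several was represented by its brightest probe set, with those not marked as matching several sequences taken first. Genes above the 20th percentile of an array's signals on at least 2 arrays of a group of 3 were tested (5610 of 5656). Precision is limited by the number of arrays.

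Changes were tested with limma 3.58.1 in R 4.3.3 (lmFit, eBayes with a trend) over the arrays of 7 strains, with a mean for each strain and time, 95 residual degrees of freedom and Benjamini-Hochberg adjustment over all genes. The 6 arrays of met31, which have 1 array a time, were left out. The code was tested on simulated data with known changes, where it recovered nearly all large changes, fewer than the larger part of the small ones, and made some false calls. No pair of arrays held identical values.

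The text names the 15 largest rises and 15 largest falls whose groups do not overlap, up to 4 members of each gene list with a call, 1 of each other list, and the largest differences from each strain. Where another gene was picked with its values in view, the text says so. The members and lists were chosen with earlier results of these data known. Alternatives changed the pseudocount, the filter, the normalization, the arrays in the model, the replicate block, array weights, the variance prior, the choice of probe set and each replicate. Promoter sequences were not analysed here.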

Additional observations from a re-analysis of the deposited data

Results flagged for a closer look

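The change at 10 min differed between gat1 and WT, by the limma test of the difference itself, for SRX1 (-3.85), HXT6 (-3.80), HXT7 (-3.01) and BIO3 (1.88), on the log2 scale and as gat1 minus WT.

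It differed between gat1 and gcn4 by the same test for 25 genes. More positive in gat1 were YPL264C (2.99), BOP2 (2.84), TDA6 (2.81), SRL4 (2.79), PKP2 (2.75), AAD10 (2.74), YAT2 (2.71), FMP23 (2.52), RTK1 (2.41), BIO3 (2.16), STB4 (2.05), IRC23 (1.85), ATG19 (1.69) and LAM5 (1.42). More negative in gat1 were RIX1 (-2.17), UTP30 (-1.94), TRM8 (-1.92), CGR1 (-1.77), TRM11 (-1.76), SPB4 (-1.60), FAL1 (-1.59), PXR1 (-1.58), MRD1 (-1.58), PRP43 (-1.55) and SPB1 (-1.42), most of them genes of ribosome assembly or RNA modification. On the gcn4 arrays the deleted GCN4 read 46.2, 35.2 and 290 at 0 min and 280, 365 and 205 at 10 min, against 6010 to 7670 on the 6 gat1 arrays; the part of this signal in the differences was not tested.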

How the results depend on the processing

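The counts depend on which arrays set the spread, and on single arrays. The 70 rises and 32 falls became 106 and 89 with gat1 arrays alone, 46 rises with the 6 arrays compared, 109 and 91 with the replicate block, 313 and 348 with array weights, 142 and 138 with the arrays deposited as scaled (chosen after the scales were seen), and 5 and 0 with the values as deposited, where the arrays keep their different scales. The 4 differences from WT became 10, 8, 10, 195, 13 and 0 in the same order. The 25 from gcn4 became 15, 0, 88, 903, 435 and 1, and 13 with a pseudocount of 1. The 0 from leu3 became 1 with the block, 151 with weights, 68 with scaled arrays and 1 with a pseudocount of 64. The 67 level differences at 10 min became 153 with the arrays of both strains, 143 with the block, 1267 with weights, 218 with scaled arrays and 2 as deposited. Without 1 array in turn there were 23 to 91 rises, 7 to 33 falls, 2 to 7 differences from WT, 0 to 272 from gcn4, 0 to 2 from leu3 and 8 to 162 level differences. Total counts under the other filters, scalings, priors and probe set rules stayed within 1.5 times, but the 14 genes more positive than in gcn4 became 23 with quantile normalization, and the 1 higher than in WT became 0 with median centring or a pseudocount of 1. No named gene reversed. Of 51 named called genes, 50 kept their call with a pseudocount of 64, 42 with 1, 48 with median centring, 33 with the 6 arrays compared and 5 as deposited, and 31, 28 and 28 without array 1, 2 or 3 at 0 min and 23, 19 and 47 without those at 10 min; BOP2, YAT2, FRM2 and CIT3 kept it in every alternative run. The causes were not tested. Same-numbered arrays at 0 and 10 min had deviations that correlated at 0.07, 0.00 and 0.27 in gat1 and at 0.24, 0.26 and 0.29 in WT. The numbers thus behaved as pairs in WT and not in all of gat1, and the labels do not say that a number marks a culture. The block lost none of the 51 named calls, the 71 WT calls or the 4 differences from WT. Signals near the 20th percentile, as of BOP2 and CIT3 at 0 min, limit the size of their changes.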

Other observations

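The genes called in gat1 gave values against the labels in other strains that lack GAT1. The mean log2 signal of the 70 rises minus that of the 32 falls was 1.43, 1.46 and -0.82 on the gat1leu3 arrays labelled 0 min, and -1.22, -1.24 and 1.08 on those labelled 10 min. VHT1, the biotin importer, followed the same order, reading 2000, 2060 and 497 under the 0 min label, then 257, 344 and 1980, and so did YAT2 with 790, 1110 and 237, then 122, 109 and 1140. In gat1gcn4, array 3 at 10 min (-1.04) lay with the 2 arrays at 0 min (-0.61 and -0.96), apart from arrays 1 and 2 at 10 min (0.12 and 0.27). VHT1 read 1590, 1930 and 285 on these 3.

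Genes of MATa cells were among the levels that differed at 10 min. STE2, the alpha-factor receptor, read 1250, 1180 and 1060 in gat1 and 528, 586 and 435 in WT (1.16, limma adjusted p = 0.034). BAR1, the protease that degrades alpha-factor, read 1490, 1920 and 985 against 405, 407 and 977 (1.35, adjusted p = 0.035). For BAR1, array 3 was nearly equal in the 2 strains. They were the 2 called of 7 MATa genes, with 0.731% of all genes called higher. Both strains are MATa, and STE2 and BAR1 were chosen after their values were seen.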
